A study of Mus musculus with 12 samples.

Results

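Tesc encodes tescalcin, a small calcium-binding protein with EF hands, the loop that many calcium sensors use to hold the ion. It was followed across sorted mouse liver cells at 3 stages of the conversion of hepatocytes into bile duct-like cells, and in resident biliary epithelial cells. Tesc is 1 of 53599 gene rows in the count table. It was picked because it was among the genes that rose most from the early to the intermediate stage, so its change at that step is described here and not tested. Bulk RNA came from 12 libraries of cells sorted from livers of wild-type mice. All mice received AAV8-TBG-Cre, a virus in which a hepatocyte promoter drives Cre, so that hepatocytes and their progeny carry EGFP, and a week later went on 0.1% DDC, a compound that injures bile ducts, for 8 weeks. The reporter through which Cre gives EGFP is not described here. No group without DDC was compared. The early group holds EGFP+ Cd24- Epcam- cells, the intermediate group EGFP+ Cd24+ Epcam- cells, the full group EGFP+ Cd24+ Epcam+ cells and the BEC group EGFP- Epcam+ cells, with 3 replicates each. The share of hepatocytes that the virus marked, and whether replicates are separate mice, is not given in the sources used here, so p-values measure the spread between these libraries, which may be technical in part.

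As background, tescalcin belongs with Chp1 and Chp2 to the calcineurin B homologous proteins. These bind the cytoplasmic tail of plasma membrane sodium-proton exchangers, which expel acid from the cell, and they help the exchanger mature and stay at the surface. Tescalcin has also been studied in the differentiation of megakaryocytes, where it has been tied to ETS transcription factors, and as a partner of the COP9 signalosome, a complex that trims ubiquitin-like tags from ubiquitin ligases.

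The windows upstream of 3 genes named below are shown for reference, with no expression result resting on them. The genes are Tesc, its relative Chp1, which moved the other way, and Rnft2 (the first of its 2 entries). Rnft2, a chromosomal neighbour, was chosen for display after its values were seen. Each line holds the 250 bases before the annotated start, from RefSeq on build GRCm38.p6, which is not the build the authors counted on. Capitals mark matches, on either strand, to 6 motifs. These are the GC box read by Sp factors (letters GGGCGG), the core of sites for ETS factors (letters CCGGAAG), the site of TEAD factors (letters GGAATG), the site of SOX factors (letters AACAAT), the AP-1 site of Fos and Jun (letters TGANTCA) and the TATA box (letters TATAAA).

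Tesc, chr5:118027493-118027742 (+ strand): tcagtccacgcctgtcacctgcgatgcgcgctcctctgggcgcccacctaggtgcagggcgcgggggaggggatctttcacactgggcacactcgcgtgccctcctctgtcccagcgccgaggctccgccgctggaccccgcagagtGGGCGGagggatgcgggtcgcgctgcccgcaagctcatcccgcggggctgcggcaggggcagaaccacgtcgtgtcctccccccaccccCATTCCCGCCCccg
Chp1, chr2:119547457-119547706 (+ strand): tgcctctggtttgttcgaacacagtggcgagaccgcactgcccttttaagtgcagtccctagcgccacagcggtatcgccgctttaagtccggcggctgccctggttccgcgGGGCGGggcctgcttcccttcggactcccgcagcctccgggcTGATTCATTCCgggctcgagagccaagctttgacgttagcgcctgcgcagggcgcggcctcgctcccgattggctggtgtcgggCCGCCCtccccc
Rnft2, chr5:118245026-118245275 (- strand): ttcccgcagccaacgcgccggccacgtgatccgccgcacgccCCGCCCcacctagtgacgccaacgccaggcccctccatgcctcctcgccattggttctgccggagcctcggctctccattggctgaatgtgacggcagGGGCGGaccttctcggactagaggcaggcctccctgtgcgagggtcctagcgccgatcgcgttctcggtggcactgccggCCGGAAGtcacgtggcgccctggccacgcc

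All 3 windows were rich in CpG. Tesc had 26 CpG, Chp1 26 and Rnft2 28, against a median of 6 over 32851 promoter windows of this length. The Tesc window held 2 GC boxes, found in 32.7% of all windows, and 1 TEAD match, found in 12.6%, which overlaps the second GC box. It held 0 matches to the other 4 motifs. The Chp1 window also held 2 GC boxes and 1 TEAD match, the latter overlapping its 1 AP-1 match (6.75% of all windows). The Rnft2 window shown held 2 GC boxes and 1 ETS core (6.91% of all windows). The other Rnft2 entry, not shown, had 26 CpG and held 0 GC boxes and 1 ETS core. Such matches are letters in a window and were not read as binding sites. Of all windows of 50 bases in the main Tesc transcript, 982 in number, 0 were shared with a transcript of another gene in the GENCODE M21 annotation, and 0 annotated genes overlap Tesc there.

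Total counts were similar, at 15112893 to 19731887 per library. Levels are CPM, counts scaled to the library size after TMM normalization, and 16210 genes passed a filter on low counts. TMM factors ran from 0.652 to 0.672 in early, 1.03 to 1.05 in intermediate, and 1.19 to 1.22 in full and BEC libraries. The same count therefore stood for more CPM in early libraries. The sort gates were visible in the RNA: Cd24a was at most 5.55 CPM in early libraries and at least 361 CPM in intermediate ones, and Epcam was at most 26.7 CPM in intermediate libraries and at least 207 CPM in full ones. The summed level of 10 hepatocyte markers ran from 102668 to 107556 CPM in early libraries and from 2065 to 2740 CPM in BEC. Mitochondrial genes took 11.4% of the counts in early replicate 2 and between 2.196% and 6.001% in the other libraries.

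Tesc was next to silent in hepatocyte-derived cells without Cd24 and present in every library of the other groups. The 3 early libraries held 1, 0 and 0 Tesc reads, at or under the floor of 3 counts, which is at most 0.273 CPM in this group. Intermediate libraries held 50.7, 26.7 and 15.9 CPM, full libraries 111, 77.6 and 82.9 CPM, and BEC libraries 68.9, 62.6 and 64.8 CPM. No 2 groups overlapped, and the order of the means was early, intermediate, BEC and full. In such sorted bulk samples, a rise may come from more cells with the transcript or from more transcript per cell, which cannot be told apart.

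The step that chose the gene took it from the floor to 31.1 ± 17.8 CPM (SD, n = 3), at least 114-fold higher, with no test. From intermediate to full it went to 90.4 ± 17.8 CPM (SD, n = 3), a log2 fold change of 1.54 (SE 0.33), which was not tested because the intermediate libraries took part in the choice. Within replicate numbers, full exceeded intermediate by 2.18-, 2.90- and 5.23-fold. BEC libraries, at 65.4 ± 3.18 CPM (SD, n = 3), were 1.36-, 2.34- and 4.09-fold above the same-numbered intermediate libraries.

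Full against BEC is the comparison the choice did not use. Tesc was lower in BEC by a log2 fold change of -0.47 (SE 0.32, 95% interval from -1.17 to 0.24), and edgeR's quasi-likelihood test did not call it (adjusted p = 0.388). The levels in full exceeded those in BEC in 3 of 3 replicate numbers, by 1.61-, 1.24- and 1.28-fold. The groups did not overlap, and a 2-sided exact permutation test gave p = 0.1, the smallest that 3 against 3 allows without pairing. That test shuffled the libraries without regard to replicate number. With the replicate number as a block, edgeR gave -0.44 (adjusted p = 0.212). Among all genes tested, 21.2% were called in this comparison and 39.6% did not overlap between the groups, 19.0% with full higher. A fit of these 6 libraries alone called the difference (-0.48, edgeR adjusted p = 0.0129), while the other alternatives in which all 4 groups took part gave adjusted p-values from 0.0824 to 1.

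The spread of Tesc between libraries could be measured in the 3 groups above the floor. The highest intermediate library exceeded the lowest by 3.20-fold, against 1.43-fold in full and 1.10-fold in BEC. Replicate 1 was the highest library for Tesc in each of these 3 groups. In early it held 1 read against 0 and 0, which is under the floor and gives no order. Intermediate replicate 1 was also the highest of its group for Cd24a (510, 461 and 361 CPM in replicates 1, 2 and 3), for Epcam (26.7, 17.4 and 12.4 CPM) and for Krt7, a duct keratin (5.85, 3.397 and 1.08 CPM). Sox9, a duct and progenitor factor (281, 352 and 301 CPM), and Krt19, another duct keratin (2.77, 2.96 and 0.906 CPM), were highest in replicate 2. On an axis over all genes tested that runs from 0 at the average early profile to 1 at the average BEC profile, the intermediate libraries lay at 0.469, 0.430 and 0.398. The library with most Tesc lay farthest along it, a description of 3 libraries with no test.

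**Figure D1:**
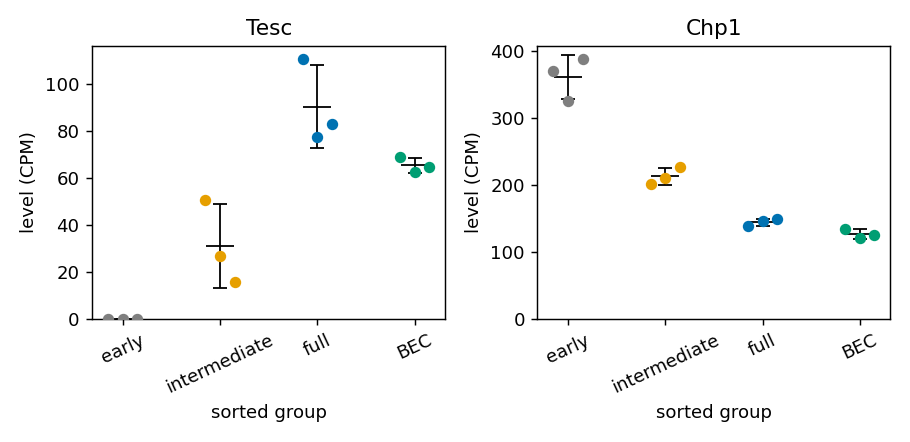
Level in CPM of Tesc and Chp1 in each library (points), with group mean and SD (bars, n = 3), for the 4 sorted groups. Tesc goes from the floor in early to 111 CPM in the highest full library, and Chp1 moves the other way.

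On a linear scale, Tesc stood at 31.1 CPM in intermediate against 65.4 CPM in BEC. On a log2 scale, whose early end for a gene with 0 reads is set by the prior count of 2, its mean had reached 86.3% of the way from early to BEC, with 95.9%, 85.7% and 77.3% in the 3 libraries. The median of the other genes at least 2-fold higher in BEC than early (adjusted p under 0.05; 4356 genes with Tesc, 26.9% of those tested) was 51.5%, and 86.3% of them had reached less than Tesc. In full, Tesc had covered 105% of that log2 distance, and 30.3% of the other genes also stood above 100%. Tesc was picked for its first step, so its place in the distribution is a description.

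**Figure D2:**
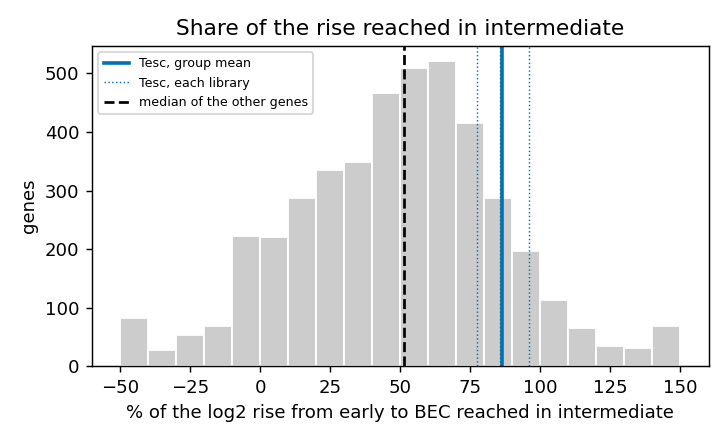
Histogram over the genes that were at least 2-fold higher in BEC than early, of the percentage of their log2 rise reached in the intermediate group, with the 116 genes beyond -50% or 150% placed in the outermost bars. Tesc (solid line 86.3%, dotted lines the 3 libraries) lies to the right of the median of the other genes (dashed line, 51.5%).

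Few genes went from the floor to a clear level at the first step. Beside Tesc, 7 genes had 3 counts or fewer in each early library and at least 10 CPM in each intermediate library, so that 0.0494% of the genes tested met the rule. They were Flnc, an actin cross-linker (42.4 CPM in intermediate), Anxa13, a membrane-binding annexin (31.6 CPM), Arhgef28, a guanine nucleotide exchange factor (21.3 CPM), Rgs4, a brake on G-protein signalling (18.2 CPM), Pak3, a kinase downstream of Rac (17.0 CPM), Fjx1 (15.8 CPM) and ccdc198 (14.4 CPM). Tesc at 31.1 CPM was number 3 of these 8 genes. Just outside the rule were Rab6b, with 9.40 CPM in its lowest intermediate library, and Wnt7a, Cdh6 and Ctnnd2, with 4 counts in an early library. After the first step the 8 genes parted. Tesc, Anxa13, Arhgef28, Pak3, Fjx1 and ccdc198 were higher in full than in intermediate and above intermediate in BEC too, whereas Rgs4 went from 18.2 to 14.1 and then 3.39 CPM, and Flnc from 42.4 to 178 and then 42.4 CPM.

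Within the family, Chp1, an essential partner of the exchangers in most cells, moved opposite to Tesc. Chp1 was at 371, 325 and 389 CPM in early libraries, 202, 211 and 227 CPM in intermediate, 139, 146 and 149 CPM in full, and 134, 121 and 125 CPM in BEC. It fell at the first step (log2 fold change -0.76, SE 0.09, edgeR adjusted p = 5.4e-06), a step at which 54.2% of all genes were called and 25.5% were called lower. It fell again at the second (-0.56, SE 0.09, edgeR adjusted p = 0.000171), where 40.7% of all genes were called and 19.9% were called lower, and the third comparison was not called (-0.19, SE 0.09, edgeR adjusted p = 0.168). Scaled by library totals alone, without TMM, the first fall was not called (-0.10, edgeR adjusted p = 0.339). Such scaling moved the median over all genes from 0.06 to 0.72 (log2) at the first step and from 0.01 to 0.21 at the second, and the share of called genes that were higher from 52.9% to 85.7% and from 51.2% to 72.6%. Directions here are relative to the TMM scale. Chp2 stayed under the filter, with 0 to 6 reads per library.

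The ratio of Tesc to Chp1 within a library does not depend on scaling. Per kb of exon in the GENCODE M21 annotation, Tesc made up at most 0.0468% of the summed level of Tesc, Chp1 and Chp2 in early libraries. Its share reached 23.5% ± 11.2 in intermediate libraries. It was 57.5% ± 5.36 in full libraries and 53.1% ± 0.192 in BEC libraries (SD, n = 3). In intermediate the 3 libraries were far apart, at 35.6%, 21.8% and 13.3%, while BEC libraries ran only from 52.9% to 53.2%. The summed level of the family per kb was 104 ± 9.40 CPM in early, 80.6 ± 7.91 CPM in intermediate, 98.2 ± 9.80 CPM in full and 77.5 ± 4.04 CPM in BEC libraries (SD, n = 3). This sum, unlike the share, moves with the scaling. Using the longest transcript in place of all exons, the share of Tesc was 28.8%, 64.3% and 60.2% in intermediate, full and BEC.

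**Figure D3:**
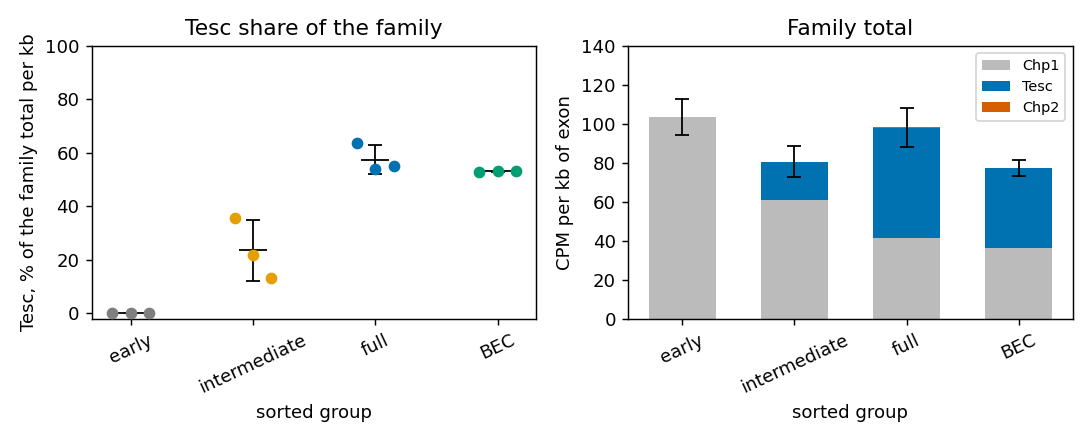
Left, Tesc as a percentage of the summed CPM per kb of exon of Tesc, Chp1 and Chp2 in each library (points, with mean and SD, n = 3). Right, the mean family total split by gene, with the SD of the total (n = 3); Tesc rises from under 0.0468% in early to 57.5% in full, and the mean total lies between 77.5 and 104 CPM per kb on the TMM scale.

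Among the sodium-proton exchangers, Slc9a5, an exchanger of recycling endosomes, had the highest correlation with Tesc of those ranked (r = 0.965 over 12 libraries, a description). It was at 0.949, 0.273 and 1.13 CPM in early, 7.36, 5.81 and 5.49 CPM in intermediate, 18.3, 17.2 and 18.2 CPM in full and 10.1, 11.7 and 12.02 CPM in BEC. It rose at the first (2.94, SE 0.29, edgeR adjusted p = 1.08e-06) and the second step (1.53, SE 0.21, edgeR adjusted p = 4.37e-05) and was lower in BEC than in full (-0.66, SE 0.20, edgeR adjusted p = 0.027). That last call was lost when any 1 of the 6 full and BEC libraries was left out, with adjusted p-values from 0.0570 to 0.0932. Of the 12 exchangers listed, 7 passed the filter and 5 did not. At the first step 4 of the 7 were called higher and 1, Slc9a8 of the Golgi, lower (-0.25, edgeR adjusted p = 0.0274), where 28.6% of all genes were called higher. Slc9b2 was among the risers (3.36, SE 0.64, edgeR adjusted p = 0.000438), from 0.209 to 2.09 CPM, with only 0, 6 and 1 reads in the early libraries. The median log2 fold change of the 7 was 0.92 against 0.06 over all genes. At the second step 4 were called higher and 0 lower (20.8% of all genes higher), and between BEC and full 2 were higher and 1 lower (10.6% of all genes in each direction). With total counts 6 were higher and 0 lower at the first step, and Slc9a8 turned to 0.41. The Slc9a8 call was also lost with no filter (edgeR adjusted p = 0.166) and without early 1, early 3, intermediate 2 or intermediate 3 (0.0670 to 0.0975).

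Of 18 partners in acid and bicarbonate handling, 16 were tested, and 8 rose and 3 fell at the first step (median 0.67 against 0.06 over all genes; with total counts 10 and 2), where 28.6% of all genes rose and 25.5% fell. Slc4a3, an anion exchanger, went from 0.896 to 28.6, 115 and 140 CPM and rose at the first step (4.96, SE 0.30, edgeR adjusted p = 4.18e-08). Slc4a11, of the same family, went from 0.259 to 6.34, 27.7 and 48.2 CPM (4.62, SE 0.37, edgeR adjusted p = 1.17e-07 at the first step), with only 1, 5 and 3 reads in the early libraries. Car2, the cytosolic carbonic anhydrase of duct cells, fell first (-1.44, SE 0.25, edgeR adjusted p = 0.000332) and then rose in full and in BEC, with means of 14.2, 5.24, 35.2 and 209 CPM along the 4 groups. Slc26a6, an anion exchanger, fell at the first step (-1.19, SE 0.16, edgeR adjusted p = 2.29e-05). At the second step 9 of the 16 rose and 2 fell (20.8% and 19.9% of all genes), and between BEC and full 7 were higher and 2 lower (10.6% of all genes in each direction).

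The regulatory subunit of calcineurin, a calcium-activated phosphatase, resembles tescalcin. Ppp3r1, which encodes it, was at 64.7, 56.7, 54.8 and 59.3 CPM on average in the 4 groups and was not called (edgeR adjusted p = 0.0981 at the first step, 0.710 at the second and 0.471 between BEC and full), but its first step depended on scaling. With total counts it rose (0.48, edgeR adjusted p = 0.000392), and with median-of-ratios factors (-0.24, edgeR adjusted p = 0.0365) or DESeq2 (-0.24, adjusted p = 0.0338) it fell. Ppp3ca, the main catalytic subunit, was not called at the first step (-0.26, edgeR adjusted p = 0.0867; with the replicate number as a block, edgeR adjusted p = 0.0120; with DESeq2, adjusted p = 0.0466). Under total counts it turned to a rise there (0.40, edgeR adjusted p = 0.00908). At the second step it was called lower (-0.34, SE 0.12, edgeR adjusted p = 0.0379), a call lost with DESeq2 (adjusted p = 0.0713), with median-of-ratios factors (0.0640), with a mean of at least 50 counts (0.0541), with total counts (-0.14, edgeR adjusted p = 0.366) and without intermediate 1, intermediate 2, full 2 or full 3 (0.0588 to 0.161). The naming rule took the largest called changes at the first step among its regulators and targets. Rcan3 rose (2.29, SE 0.18, edgeR adjusted p = 9.56e-08), Rcan1 fell (-1.23, SE 0.45, edgeR adjusted p = 0.0403) with early libraries spread from 36.5 to 119 CPM, and Nfatc2, a transcription factor that calcineurin activates, rose (1.94, SE 0.15, edgeR adjusted p = 9.92e-08). The Rcan1 call was lost without any 1 of 10 of the 12 libraries (all but early 1 and intermediate 3; edgeR adjusted p = 0.0540 to 0.140), with no filter (0.111), in the fit of 6 libraries (0.112) and with total counts (0.269). Of 14 tested genes of 15 listed, 7 rose and 1 fell at the first step (median 0.28; with total counts 11 and 0, with the replicate block 8 and 3), where 28.6% of all genes rose and 25.5% fell. At the second step 4 rose and 3 fell (20.8% and 19.9% of all genes), but with total counts 7 rose and 1 fell. Between BEC and full 1 was higher and 1 lower (10.6% of all genes in each direction), or 3 and 1 with the replicate block.

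Of 25 other EF-hand calcium sensors listed, 18 were tested, and 7 rose and 5 fell at the first step (median 0.18), near the 28.6% and 25.5% of all genes. Ncs1, neuronal calcium sensor, went from 0.332 to 6.78, 23.5 and 28.2 CPM (4.31, SE 0.51, edgeR adjusted p = 1.34e-05 at the first step). Its early mean was close to the floor, at most 0.273 CPM in that group, so the size of this fold rests on few reads. Efhd1, a mitochondrial EF-hand protein, rose at the first step (2.58, SE 0.56, edgeR adjusted p = 0.00124) and the second (3.60, SE 0.32, edgeR adjusted p = 9.6e-07) and was lower in BEC than in full (-1.25, SE 0.27, edgeR adjusted p = 0.00357). Cib3, a calcium- and integrin-binding protein, fell from 187 to 25.7, 2.01 and 1.59 CPM (-2.87, SE 0.17, edgeR adjusted p = 7.97e-09 at the first step), and Cib1 fell as well (-0.82, SE 0.13, edgeR adjusted p = 0.000118; with total counts -0.15, edgeR adjusted p = 0.313). At the second step 6 rose and 3 fell (20.8% and 19.9% of all genes), and between BEC and full 5 were higher and 2 lower (10.6% of all genes in each direction). With total counts 11 rose and 1 fell at the first step, 12 and 1 at the second, and 4 and 3 between BEC and full.

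In the COP9 signalosome, Cops4, the subunit reported to bind tescalcin, was at 48.7, 45.6, 41.4 and 44.6 CPM in the 4 groups and was not called at the first step (-0.09, edgeR adjusted p = 0.481; with total counts 0.57, edgeR adjusted p = 0.000226). Of its 10 genes 4 fell and 0 rose at the first step, among them Cops9 (-0.68, edgeR adjusted p = 0.00166) and Cops7a (-0.52, edgeR adjusted p = 6.77e-05), and 3 fell and 0 rose at the second, against 25.5% and 19.9% of all genes called lower. The direction at the first step depended on scaling, since with total counts 7 rose and 0 fell, and neither Cops9 (-0.02, edgeR adjusted p = 0.939) nor Cops7a (0.15, edgeR adjusted p = 0.130) was called. Between BEC and full 0 of the 10 were called by edgeR or DESeq2, where edgeR called 21.2% of all genes, and 0 had an unadjusted edgeR p under 0.05, which 4957 of the 16210 genes had.

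ETS factors rose at the first step more often than they fell. Of 26 listed, 19 were tested and 7 were too low, and at the first step 12 rose and 0 fell (median 0.82; with total counts 17 and 0), against 28.6% and 25.5% of all genes. Etv4 went from 0.552 to 38.5, 39.0 and 9.40 CPM (6.10, SE 0.42, edgeR adjusted p = 1.59e-07 at the first step). Its intermediate libraries were at 57.0, 33.3 and 25.4 CPM, with replicate 1 highest as for Tesc. Ehf, an epithelial ETS factor, went from 0.796 to 21.7, 185 and 494 CPM (4.70, SE 0.65, edgeR adjusted p = 0.000162). Ets1 went from 6.87 to 44.5, 106 and 99.7 CPM, rising at the first step (2.69, SE 0.21, edgeR adjusted p = 3.47e-07) and the second (1.25, SE 0.18, edgeR adjusted p = 0.000141). Fli1, the megakaryocyte factor, stayed under the filter with 0 to 17 reads. At the second step 8 rose and 1 fell (20.8% and 19.9% of all genes), or 12 and 0 with total counts. Between BEC and full 4 were higher and 2 lower (10.6% of all genes in each direction).

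**Figure D4:**
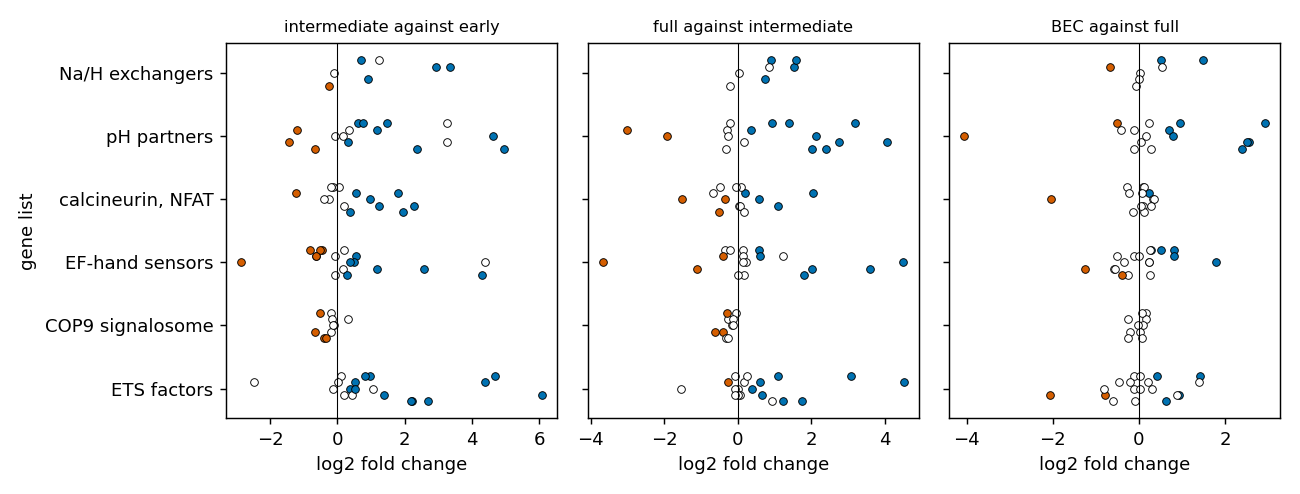
Log2 fold change of each tested member (points) of the 6 gene lists in the 3 comparisons named above each panel; filled points passed an adjusted p of 0.05 (blue higher, orange lower) and open points did not. ETS factors have 12 blue and 0 orange points in the first panel, and the COP9 genes 0 blue and 4 orange, on the TMM scale.

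Markers of other cell types were summed in each library. Of 10 megakaryocyte and platelet markers, Gp1bb, Gp6 and Treml1 had 0 reads in all 12 libraries, and the summed level of the list ran from 3.804 to 4.82 CPM in early, 4.22 to 5.83 in intermediate, 5.95 to 6.78 in full and 6.55 to 8.59 in BEC. Neutrophil and lymphocyte markers summed to at most 1.13 CPM in any library. The 10 macrophage markers summed to between 25.9 and 28.4 CPM in early, 30.8 and 40.6 in intermediate, 66.1 and 95.6 in full, and 133 and 161 in BEC. Csf1r made up 127 CPM of the BEC mean. Over the 12 libraries Csf1r had r = 0.934 with Tesc, whereas Cd68, another marker of this list, had -0.924. Of the 8 macrophage markers tested, 1 was called higher and 1 lower at the first step (28.6% and 25.5% of all genes). At the second step 1 was higher and 0 lower (20.8% and 19.9%), and between BEC and full 2 and 0 (10.6% in each direction). The part of macrophages in the Tesc levels was not tested. Endothelial markers summed to at most 25.5 CPM and were highest in early. Stellate cell and fibroblast markers ran from 113 to 330 CPM in early and from 49.4 to 85.7 CPM in full. Mesothelial markers were highest in BEC, at 225 to 249 CPM, of which Msln held 198 CPM on average.

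On mouse chromosome 5, 3 protein-coding neighbours on each side of Tesc were looked at. Of these, Rnft2, a membrane RING finger gene 3 places away, rose at the same steps. Among all genes tested, 28.6% were called higher at the first step and 20.8% at the second. Rnft2 was at 0.0791, 0 and 0 CPM in early, 3.71, 3.397 and 1.64 CPM in intermediate, 8.04, 7.89 and 8.44 CPM in full and 7.18, 7.08 and 6.81 CPM in BEC. It was at least 10.7-fold higher in intermediate than in early (edgeR adjusted p = 1.08e-06) and rose again at the second step (log2 fold change 1.48, SE 0.27, edgeR adjusted p = 0.000546). BEC against full was not called (-0.21, SE 0.25, edgeR adjusted p = 0.656). Its early libraries held 1, 0 and 0 reads, the same as for Tesc. The genes directly beside Tesc were not called at the first step on the TMM scale. Fbxo21, an F-box gene, was at 168, 176 and 131 CPM in the hepatocyte-derived groups and fell from full to 65.0 CPM in BEC (-1.02, SE 0.17, edgeR adjusted p = 0.000847), with the first step not called (0.07, edgeR adjusted p = 0.76) except with total counts, where it rose (0.74, edgeR adjusted p = 0.00153). Fbxw8, another F-box gene, was at 82.0, 78.9, 68.9 and 58.8 CPM and was not called in any of the 3 comparisons (edgeR adjusted p = 0.653, 0.125 and 0.124), although with total counts it rose at the first step (0.61, edgeR adjusted p = 7.11e-05) and the fit of 6 libraries called it lower in BEC than in full (-0.24, edgeR adjusted p = 0.0451). Hrk and Nos1 were at 2 reads or fewer in every library, and Ksr2, a kinase scaffold, came above 1 CPM only in full and BEC (means of 1.86 and 3.31 CPM).

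Genes with a profile like that of Tesc were ranked by Pearson's r of log2 CPM over the 12 libraries, among 12131 other genes with at least 5 CPM in their highest group. Because all libraries share the stage order, high values are common: 16.5% of these genes had r above 0.9. The closest were Tspan6, a tetraspanin (r = 0.998), Brsk1, a polarity kinase (0.997), Elk3, an ETS factor (0.996), Mex3a, an RNA-binding protein (0.996), Gm5406 (0.995), Fblim1, a filamin-binding adhesion protein (0.995), Itga3, a laminin receptor subunit (0.995), Ift57, a part of the transport machinery of cilia (0.995), Dcdc2a, a ciliary doublecortin protein of duct cells (0.995), and Pkd2, the cation channel polycystin-2 (0.995). Their levels differed widely. Tspan6 went from 0.246 to 7.75, 17.3 and 13.3 CPM and Brsk1 from 0 to 7.47, 19.6 and 15.2 CPM. Elk3 went from 2.32 to 48.7, 74.7 and 54.3 CPM and Mex3a from 0.985 to 33.4, 87.1 and 67.5 CPM. Itga3 (42.3, 350.003, 542 and 499 CPM) and Pkd2 (71.9, 216, 288 and 263 CPM) were well above the floor in early. Rnft2 stood at rank 13 (r = 0.994).

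After subtracting the group means, over the 9 intermediate, full and BEC libraries, Ift57 still had r = 0.994 with Tesc, Elk3 0.94, Tspan6 0.93 and Dcdc2a 0.921, whereas Pkd2 had 0.423 and Itga3 0.386. The ranking used these same values, so this is a description and not a check. The list is not stable. Only 3 of the 20 genes were among the 20 closest by Spearman's correlation and 1 by Euclidean distance of centred profiles, which also weighs the size of the rise and put Anxa13 and Cd24a nearest. Without the early group 1 of the 20 was found again, an alternative added after the data were seen. Other genes of interest had lower places: Cd24a was 71st (r = 0.989) and Chp1 10940th (-0.929). The most opposite profiles were those of Calr, an endoplasmic reticulum chaperone (r = -0.994), Mdh1, cytosolic malate dehydrogenase (-0.993), Lman2, a cargo lectin (-0.992), Ogdh, of the citric acid cycle (-0.992), and Suox, sulfite oxidase (-0.991). Calr went from 1463 to 617, 477 and 545 CPM.

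**Figure D5:**
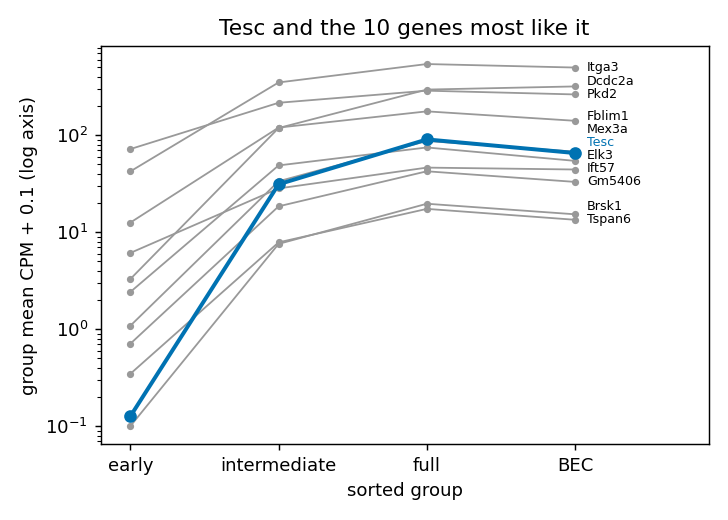
Group mean level (CPM plus 0.1, log axis) of Tesc (thick line) and of the 10 genes with the highest correlation to it over 12 libraries (thin lines). The means of all go up from early to intermediate and to full, by different amounts, a shape fixed by the choice of the genes.

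Promoter windows were found for 18 of the 20 closest genes, 25 windows in all. Of these, 52% held a GC box (32.7% of all windows), 12% an ETS core (6.91%), 12% an AP-1 match (6.75%), 8% a TEAD match (12.6%), 8% a SOX match (9.42%) and 0 a TATA box (12.4%), values given as a description of a list chosen by likeness.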

How the data were processed

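RNA from 12 sorted libraries was sequenced; libraries were prepared by a service provider, per the labels' protocols. The authors deposited raw counts per gene symbol; STAR 2.7.10b, featureCounts 2.0.1 and DESeq2 are named, with build GRCm39, per the submitters' processing notes. Strandedness, annotation and the treatment of shared reads are not given in the sources used here. The deposited table of scaled counts was not used. Samples were grouped by title. With R 4.3.3, edgeR 4.0.16, limma 3.58.1, DESeq2 1.42.0, Python 3.11.15 and matplotlib 3.10.9, genes were kept by filterByExpr (16210 of 53599; holding 99.9% of the counts in the library with least), scaled by TMM and fitted in 1 quasi-likelihood model with a term per group, robust dispersions and a Benjamini-Hochberg adjustment over all genes tested (threshold 0.05). SE is the absolute log2 fold change divided by the square root of F. Log2 CPM used a prior count of 2. The floor is 3 counts per library (0.128 to 0.273 CPM) and, like the depth, covers counting error only.

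Members and lists were chosen with earlier results of these data known. Named genes are Tesc, Chp1, Chp2, the 2 largest called rises and falls of each list at the first step, fixed partners (Ppp3r1, Ppp3ca, Cops4, Ets1 and Fli1; another is not reported here), the 10 most and 5 least like genes, the genes that left the floor and 3 neighbours on each side; Slc9a5's place and genes just outside a rule were noted after values were seen. Neighbour order, exon lengths and promoters come from GRCm38 annotations, and no coordinates were carried between builds. Labels number replicates 1 to 3 in each group; same-numbered libraries deviated together (r from 0.121 to 0.293, 0.137 to 0.322 and 0.170 to 0.257 across genes in the 3 comparisons), so the numbers pair the libraries, though what they mark is not stated. Replicates differed beyond counting error (chi-square per degree of freedom at least 5.34). The procedure was tested on simulated counts. Alternatives were DESeq2, other scaling and filters, a required 2-fold change, models of 6 libraries or with a replicate block, and models leaving out each library.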

Additional observations from a re-analysis of the deposited data

How the results depend on the processing

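Tesc was lower in BEC than in full under each alternative run, and only the fit of 6 libraries called it (-0.48, edgeR adjusted p = 0.0129). Leaving out 1 library gave -0.57 to -0.30, and the first step, a fitted value that is no bound, 9.28 to 12.2. Requiring a 2-fold change left 2730, 1898 and 796 genes called in the 3 comparisons, by construction. It left 2, 1 and 0 exchangers, 2, 2 and 1 calcineurin genes, 3, 5 and 0 EF-hand genes, 6, 3 and 1 ETS factors, 0 and 0 COP9 genes at the first 2 steps, and 3 and 5 pH partners at the first step and between BEC and full.

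With the replicate number as a block, 4 calcineurin genes were called between BEC and full (2 without it, 1 with no filter). Cib1, Slc9a8 and Fbxo21 were then called at the second step (edgeR adjusted p = 0.0370, 0.0457 and 0.00583). Cib1 and Fbxo21 were also called there in the fit of 6 libraries (0.0247 and 0.0278), Cib1 with no filter (0.0443) and Slc9a8 without full 1 (0.0446). With the block Ppp3ca was called at the first step and between BEC and full (0.0120 and 0.00487). Its first step was also called with median-of-ratios factors (0.0424) and without intermediate 1 (0.0358). Between BEC and full it was also called with DESeq2 (adjusted p = 0.0489) and by edgeR without full 1 (0.0184) or intermediate 1 (0.0494). With the replicate block 8 calcineurin genes rose and 3 fell at the first step, in place of 7 and 1. COP9 calls at the second step were 6 in the fit of 6 libraries and 1 with total counts, and at the first step 7 with total counts. Total counts reversed Cops4 (0.57 and 0.0587 at the first and second steps), Fbxw8 (0.61 and 0.00539), Ppp3r1 (0.48 and 0.15), Slc9a8 (0.41 and 0.00712), Cops7a (0.15, first step) and Ppp3ca (0.40, first step). Without a filter Cops9 went to -0.00489 between BEC and full.

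Leaving out single libraries gave 1 to 3 calcineurin calls between BEC and full (1 without BEC 1, BEC 2, full 2, full 3 or intermediate 3) and 5 to 8 at the first step (5 without BEC 2 or early 2). COP9 calls at the second step were 2 to 5 (5 without BEC 1). EF-hand calls between BEC and full were 4 to 9 (4 without BEC 3 or any 1 full library). Exchanger calls were 1 to 3 between BEC and full (1 without any 1 of those 6 libraries) and 2 to 5 at the second step (2 without full 3 or intermediate 2). Differences near 0 changed sign: Cops9 (-0.0690 to 0.186), Ets1 (-0.27 to 0.0249), Rcan1 (-0.0753 to 0.23) and Slc9a8 (-0.12 to 0.0119) between BEC and full, Etv4 at the second step (-0.24 to 0.41), and Fbxo21 (-0.0642 to 0.33) and Fbxw8 (-0.17 to 0.0263) at the first. Of the 20 genes most like Tesc, 10 were found with total counts, 12 with a prior count of 0.5, 3 by Spearman's correlation, 1 by Euclidean distance, 1 without the early group (added after the data were seen) and 9 to 19 without 1 library (9 without early 1, 12 without early 2). The cause of these shifts was not tested. Genes near the floor, such as Tesc in early, are limited by depth.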
